A study of Homo sapiens with 21 samples.

Results

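OCI-AML3 cells exposed to tunicamycin for 24 h (24H_TM) were compared directly with the same line exposed for 4 h (4H_TM), with 3 libraries on each side, so that 6 of the 21 RNA-seq libraries of the series form the comparison. OCI-AML3 is an acute myeloid leukaemia line that carries mutant NPM1, and tunicamycin was used at 1 μg/mL. The 6 libraries were chosen by their labels alone. The series also holds OCI-AML3 cells left untreated (0H) or given DMSO, the solvent, for 4 h (4H_DMSO) or 24 h (24H_DMSO), and HEK293T cells given DMSO or tunicamycin for 24 h, with 3 libraries in each of the 7 groups. The study asked how the unfolded protein response changes RNA processing, and the direct comparison of the exposure times asks which transcripts differ between early and prolonged stress. Because 24H_TM and 4H_TM also differ by 20 h in culture, 24H_DMSO was set against 4H_DMSO in the same way, and the difference between both changes, the interaction, was tested. All 6 tunicamycin libraries come from a single cell line. The labels do not say that replicates are separate cultures, so that p-values measure the spread between libraries. That spread was estimated from all 21 libraries in a single fit, not from the 6 alone.

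Tunicamycin inhibits DPAGT1, the enzyme that starts the sugar chain later attached to asparagines of secretory proteins, and glycoproteins that lack it misfold in the endoplasmic reticulum (ER). Sensors in the ER membrane then start the unfolded protein response (UPR). PERK, encoded by EIF2AK3, phosphorylates the initiation factor eIF2α, which slows translation while favouring that of ATF4, a factor that induces genes of amino acid supply and DDIT3 (CHOP). IRE1, encoded by ERN1, splices XBP1 mRNA into the form that encodes an active factor and cuts some other mRNAs at the ER. ATF6 is cut in the Golgi into a transcription factor which, like XBP1, acts on genes of chaperones and of ER-associated degradation (ERAD). In tumour cells of the blood the UPR is known both for keeping stressed cells alive and, when stress persists, for cell death.

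Libraries of the comparison held 14108138 to 18341520 counts. Levels are given as CPM, read counts relative to the library size as scaled by TMM, and differences as log2 fold changes. Of 60671 genes, 14012 reached 1 CPM in 8 or more libraries and were tested with edgeR's quasi-likelihood test. In what follows, values in brackets after a gene are log2 fold changes from 4H_TM to 24H_TM unless stated otherwise, rose and fell mean that the p, adjusted after Benjamini and Hochberg over all tested genes, did not exceed 0.05, and a gene was called when it also changed more than 2-fold. Replicate 3 of 24H_TM stood apart: its counts differed from those of replicates 1 and 2 by a chi-square per degree of freedom of 16.4 and 23.7, against 7.77 between replicates 1 and 2 and at most 3.95 within 4H_TM. Values without it are given for lists of which it moved a count by more than 1.5 times or by 5 or more genes. Of the myeloid markers, SPI1, CD33, LYZ, HOXA9 and MEIS1 were detected at 28.6 CPM or more in the mean of every OCI-AML3 group. So was NPM1, the gene mutated in this line, whereas the myeloid marker MPO stayed between 1.03 and 1.52 CPM. Of 17 markers of lymphoid, erythroid, epithelial and fibroblast cells, 2 were tested, COL1A2 at a mean of 20.04 CPM in 4H_TM and 6.26 CPM in 24H_TM and KRT18 at 0.635 and 1.81 CPM, and their part in other results was not tested. In bulk RNA, fewer cells of a type and less RNA per cell cannot be told apart. Where a list is said to hold no gene that moved in a direction, the count was also 0 at an unadjusted p of at most 0.05 and with limma voom and DESeq2. RSEM divides reads that fit several genes, so that values of near-identical genes and of genes with many processed copies, such as ribosomal proteins and FTH1, are uncertain. Whether counting used the strand is not given in the sources used here, and genes on the other strand overlap DDIT3 (MARS1), HSP90B1 (UQCC6), CRELD2 (ALG12), DERL3 (SMARCB1), PDIA3 (ELL3), GMPPB (RNF123), SLC7A11 (SLC7A11-AS1), SNED1 (MTERF4), SULF2 (NCOA3), TGM2 (RPRD1B), LSP1 (PRR33), MX1 (TMPRSS2), IFIT1 (LIPA), ISG15, HMGCS1 and PLK1 (ERN2), among others.

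From 4 h to 24 h of tunicamycin, 3817 genes rose, 27.2% of those tested, and 4487 fell, 32%. Past the 2-fold threshold the balance was the other way, with 1005 genes higher, 7.17%, and 430 lower, 3.07%. Over the same 20 h with DMSO, 2944 genes rose (21%) and 3026 fell (21.6%), of which 488 (3.48%) and 93 (0.664%) changed more than 2-fold. Of the 1005 genes called higher with tunicamycin, 282 were also called higher with DMSO, which is 28.1% of the former and 57.8% of the latter, and 22 genes were called lower in both, 5.12% and 23.7%. The change itself differed between tunicamycin and DMSO for 2111 genes in the higher direction (15.1%) and for 2842 in the lower (20.3%). Of these, 487 (3.48%) and 362 (2.58%) differed more than 2-fold. Counts of members that rose or fell in the gene lists stand against the shares of all tested genes. These are 27.2% and 32% with tunicamycin, 21% and 21.6% with DMSO, and 15.1% higher and 20.3% lower for the interaction. The median log2 fold change over all tested genes was -0.03 with tunicamycin and -0.02 with DMSO. Without replicate 3 of 24H_TM, 1046 genes were called higher and 397 lower, and the interaction was called for 734 genes in place of 849.

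**Figure D1:**
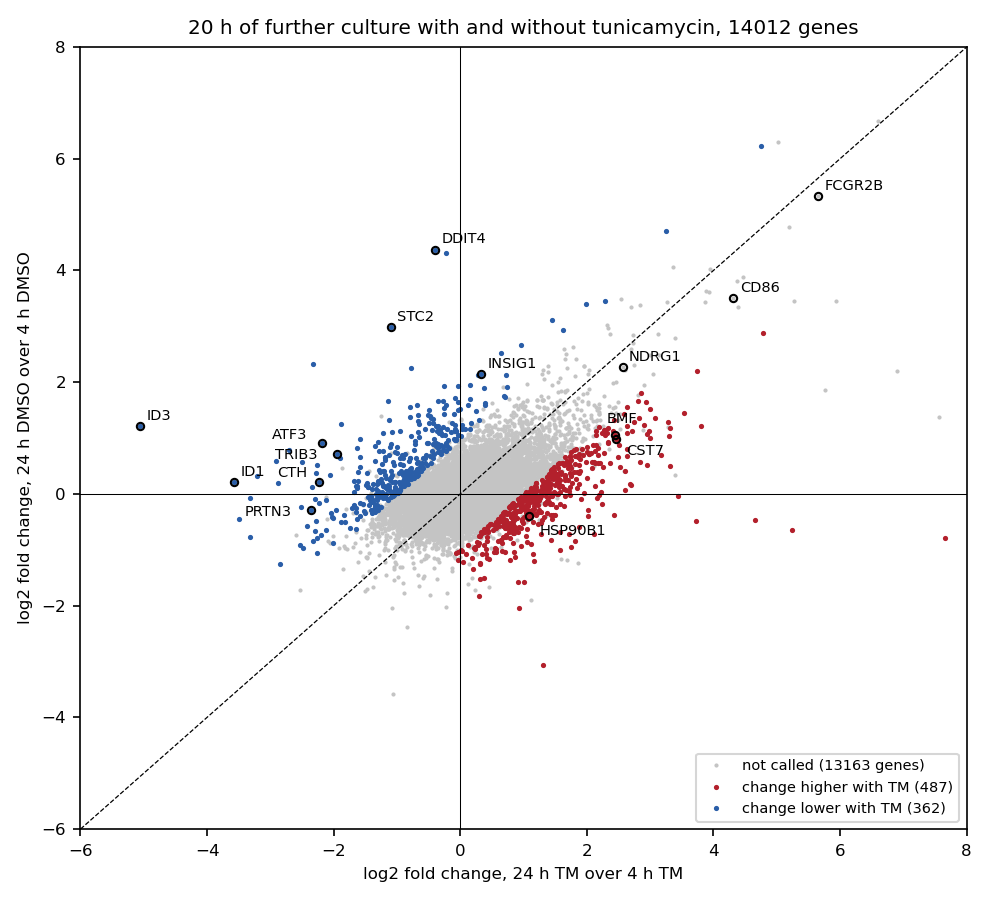
Log2 fold change from 4 h to 24 h with tunicamycin (horizontal axis) against that with DMSO (vertical axis), each point a gene, coloured by whether the difference of both changes was called, with 2 genes outside the axes. Points on the dashed line changed alike. DDIT4 and STC2 lie far above it and HSP90B1 below it, while FCGR2B and NDRG1 lie near it.

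Of 18 tested transcripts of the stress sensors and of the factors they release, 9 fell and 4 rose, beside 32% and 27.2% of all tested genes. Their median log2 fold change was -0.23. ATF3, a stress-induced factor downstream of ATF4, was measured at 20.2, 18.7 and 17.3 CPM in the 4H_TM libraries and at 4.08, 3.5 and 4.63 CPM in the 24H_TM libraries (log2 fold change -2.19 ± 0.14 (SE), adjusted p = 2.71e-11). DDIT3 (CHOP), which drives the late, death-prone part of the response, was at 436, 477 and 448 CPM and then at 209, 253 and 194 CPM (log2 fold change -1.05 ± 0.09 (SE), adjusted p = 2.04e-09). In neither gene did the groups overlap, yet DDIT3 at 24 h remained 20.2 times its level in 24H_DMSO, against 41.3 times at 4 h. CEBPB, a partner of ATF4 and CHOP, and ERN1 fell with log2 fold changes of -0.91 and -0.89, and CEBPG, CREB3L2, ATF6, EIF2AK3 and NFE2L2 with values from -0.55 to -0.29. EIF2AK3 went from a mean of 49.4 ± 1.35 CPM to 39.1 ± 3.15 CPM (SD, n = 3).

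The mRNAs of ATF4 and XBP1 themselves did not pass the test. ATF4 was at 828, 832 and 807 CPM in 4H_TM and at 819.6, 900.1 and 707 CPM in 24H_TM (log2 fold change -0.02, adjusted p = 0.82), and the 24 h libraries lay on both sides of the 4 h ones. XBP1 was at 772, 721 and 730.3 CPM and 725, 734 and 636 CPM (log2 fold change -0.09, adjusted p = 0.35). Their mean levels with tunicamycin were 2.01 and 3.94 times those with DMSO at 4 h, and 1.87 and 3.57 times at 24 h. Counts per gene do not separate spliced from unspliced XBP1, and ATF4 protein was not part of these data. The members that rose were CREB3L4, MBTPS1, ATF6B and ATF5, with log2 fold changes of 0.48, 0.39, 0.37 and 0.23. MBTPS1 is the protease that makes the first cut in ATF6. For ATF5, a mean of 53.7 CPM at 4 h was followed by 62.9 CPM at 24 h, while it fell with DMSO (log2 fold change -0.70), and the changes differed by 0.93 (adjusted p = 4.10e-05). Its rise with tunicamycin did not pass under 6 of 21 alternatives.

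**Figure D2:**
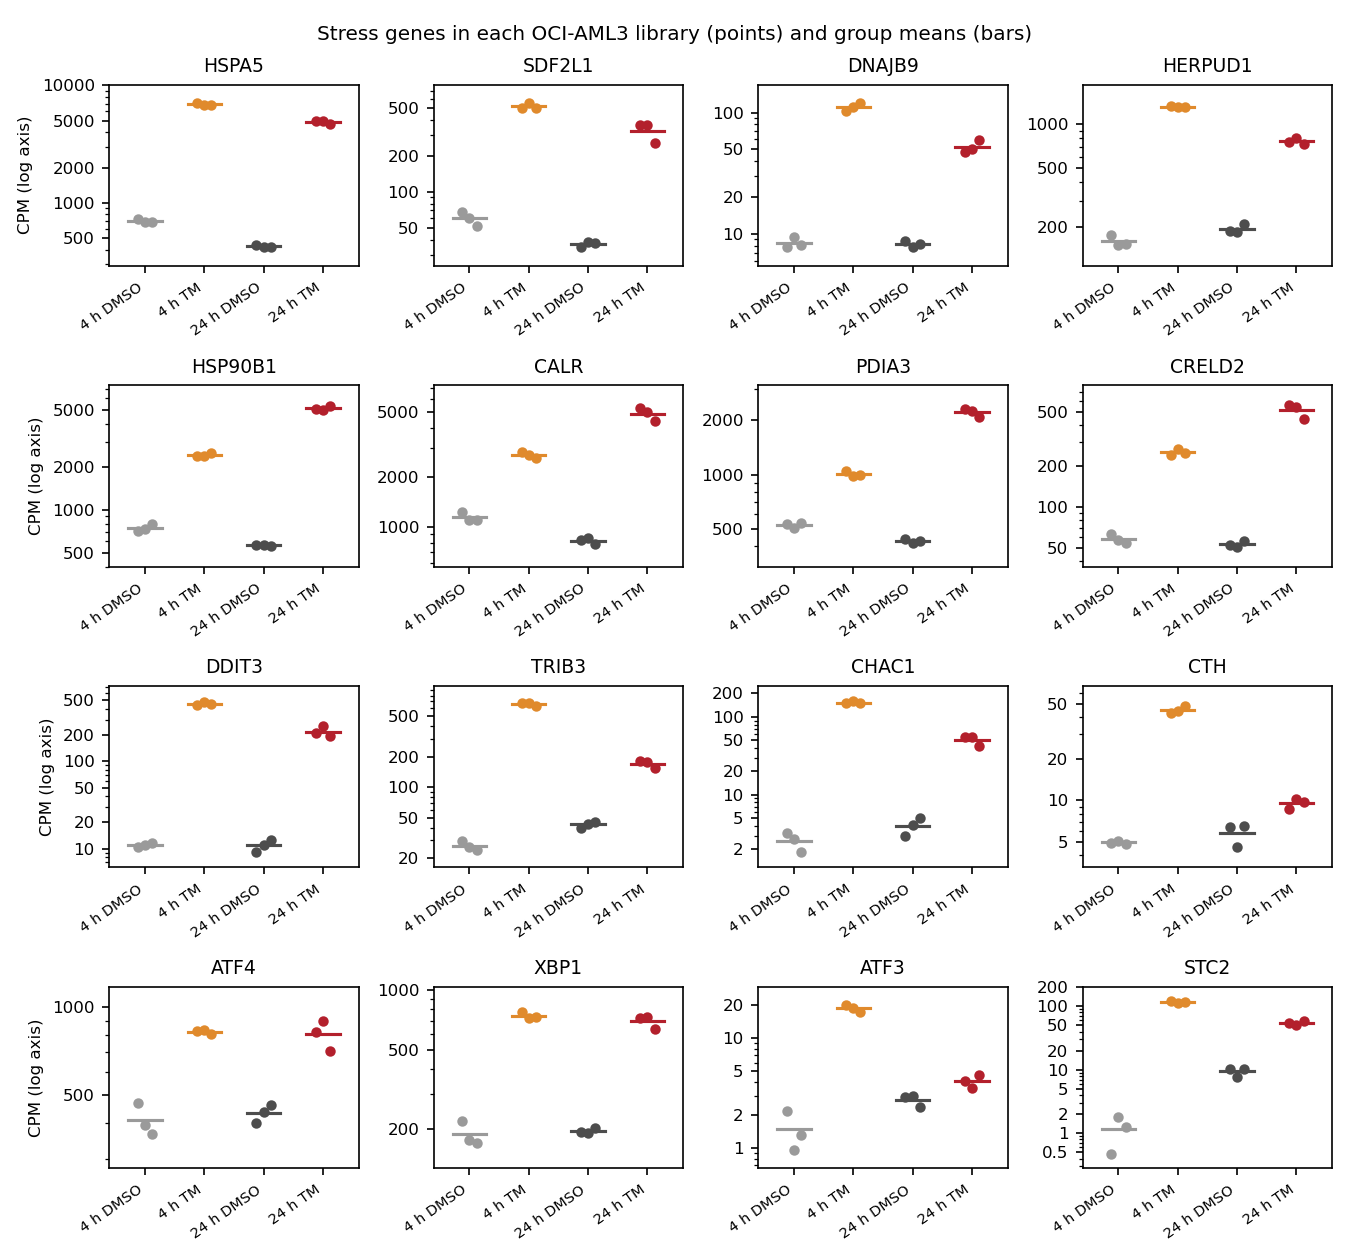
Level of 16 stress genes in CPM (vertical axes, log scale) in each OCI-AML3 library with DMSO or tunicamycin (TM), points being libraries and bars group means. HSPA5, SDF2L1, DNAJB9 and HERPUD1 were lower at 24 h than at 4 h of tunicamycin, HSP90B1, CALR, PDIA3 and CRELD2 were higher, and DDIT3, TRIB3, CHAC1 and CTH were lower.

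Of 25 tested chaperones of the ER lumen, 10 rose, 8 fell and 7 did not pass, beside 27.2% and 32% of all tested genes that rose and fell. HSPA5 (BiP), the Hsp70 of the ER that also holds the sensors inactive, was at 7056, 6801 and 6749 CPM in 4H_TM and at 4994, 5011 and 4712 CPM in 24H_TM (log2 fold change -0.49 ± 0.06 (SE), adjusted p = 1.86e-07). HSP90B1 (GRP94), the Hsp90 of the ER, was at 2375, 2385 and 2512 CPM and then at 5093, 4989.5 and 5309 CPM (log2 fold change 1.08 ± 0.06 (SE), adjusted p = 3.88e-12). The groups did not overlap in either gene, and the 2 genes moved in opposite directions. With DMSO both fell, by log2 fold changes of -0.72 and -0.40, so that the interaction was 0.24 for HSPA5 (adjusted p = 0.025, not passing under 4 of 20 alternatives) and 1.48 for HSP90B1 (adjusted p = 4.78e-11). Relative to DMSO, HSPA5 stood at 9.76 times at 4 h and 11.5 times at 24 h, and HSP90B1 at 3.25 and 9.1 times.

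Several helpers of BiP fell together with it. DNAJB9 (ERdj4), a J-domain cochaperone that also restrains IRE1, was at 103, 112 and 119 CPM at 4 h and at 46.9, 50.3 and 59.4 CPM at 24 h (log2 fold change -1.09 ± 0.09 (SE), adjusted p = 1.10e-09). SDF2L1, a partner of BiP and its cochaperones, fell from a mean of 519 ± 26.4 CPM to 326 ± 60.03 CPM (SD, n = 3), replicate 3 being the lowest of the 24 h libraries. DNAJC3 (p58IPK), an inhibitor of PERK, and HYOU1 (GRP170), which exchanges the nucleotide of BiP, fell with log2 fold changes of -0.50 and -0.34, and the prolyl isomerase FKBP14 with -1.31. With DMSO, DNAJC3, HYOU1 and SDF2L1 also fell, with log2 fold changes of -0.63, -0.59 and -0.71, and their interactions did not pass the test (adjusted p = 0.3, 0.072 and 0.88), though that of HYOU1 did under 8 of 20 alternatives. DNAJB9 did not pass with DMSO (log2 fold change -0.02), and its interaction was -1.06 (adjusted p = 2.06e-05).

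The lectin chaperones, which bind the trimmed sugar chains whose assembly tunicamycin blocks, were among those that rose. Calreticulin (CALR) was at 2851, 2735 and 2625 CPM in 4H_TM and at 5272, 4982 and 4378 CPM in 24H_TM (log2 fold change 0.83 ± 0.07 (SE), adjusted p = 1.30e-09). Calnexin (CANX), its membrane-bound counterpart, rose from a mean of 1611 ± 52.0 CPM to 2583 ± 102 CPM (SD, n = 3). CRELD2, a secreted protein of the ER, rose from 251 ± 11.6 to 513 ± 62.9 CPM, and the prolyl isomerases PPIB and FKBP2 with log2 fold changes of 0.72 and 0.71. Every one of the 3 libraries at 24 h lay above every 4 h library for CALR, CANX and CRELD2. With DMSO, CALR and CANX fell with log2 fold changes of -0.47 and -0.16, and over the list 12 of 25 interactions were higher and 1, that of DNAJB9, was lower. DNAJB11 and MANF, a BiP cochaperone and a BiP-binding survival factor, did not pass with tunicamycin (log2 fold changes 0.11 and 0.17), though they did under 3 and 8 of 21 alternatives. Both fell with DMSO and differed in the interaction by 0.88 and 0.61. The list's summed level was 19079 to 19573 CPM in the 4H_TM libraries and 22396 to 24214 CPM in the 24H_TM libraries.

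Promoters of several of these genes hold the ER stress response element (ERSE), to which ATF6 and XBP1 are known to bind. The 250 bases before the start of transcription are shown for genes whose mRNAs moved in different directions between 4 h and 24 h, as given by RefSeq on GRCh38.p14, 5′ to 3′ on the strand of the gene, with matches in capitals. The ERSE was searched as CCAAT, 9 bases and CCACG, the related ERSE-II as ATTGG, 1 base and CCACG, and the element of ATF4 and its partners as TGATGCAA, each on both strands and without overlaps among them in these windows. HSPA5 (chr9:125241344-125241593, minus strand) fell, while HSP90B1 (chr12:103930160-103930409), CALR (chr19:12938359-12938608) and CRELD2 (chr22:49918384-49918633), all on the plus strand, rose. In HSP90B1, CALR and CRELD2 the capitals include matches on the opposite strand, which read CGTGG first and ATTGG last.
HSPA5: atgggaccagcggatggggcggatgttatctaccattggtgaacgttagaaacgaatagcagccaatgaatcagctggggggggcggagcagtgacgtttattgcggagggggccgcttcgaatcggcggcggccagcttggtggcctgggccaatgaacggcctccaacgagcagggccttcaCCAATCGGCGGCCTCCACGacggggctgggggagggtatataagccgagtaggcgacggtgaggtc
HSP90B1: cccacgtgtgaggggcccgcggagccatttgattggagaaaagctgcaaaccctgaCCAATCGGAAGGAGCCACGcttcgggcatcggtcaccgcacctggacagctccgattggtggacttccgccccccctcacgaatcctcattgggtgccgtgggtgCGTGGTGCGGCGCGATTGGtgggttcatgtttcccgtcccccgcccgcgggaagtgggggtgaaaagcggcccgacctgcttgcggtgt
CALR: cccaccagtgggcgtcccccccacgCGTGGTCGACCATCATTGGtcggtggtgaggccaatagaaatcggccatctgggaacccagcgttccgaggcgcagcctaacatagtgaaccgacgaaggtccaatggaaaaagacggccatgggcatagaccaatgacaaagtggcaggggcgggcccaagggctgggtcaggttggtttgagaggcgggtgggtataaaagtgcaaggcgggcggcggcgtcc
CRELD2: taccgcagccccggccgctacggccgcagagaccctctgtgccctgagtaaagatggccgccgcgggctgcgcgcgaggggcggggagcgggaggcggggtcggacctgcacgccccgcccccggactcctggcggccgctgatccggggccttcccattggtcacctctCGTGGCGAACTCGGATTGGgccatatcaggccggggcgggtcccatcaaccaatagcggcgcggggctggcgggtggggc

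Of 35116 windows of 300 bases, from 250 before to 50 after a start, 27 (0.0769%) held an ERSE. Among the 16 tested genes that had such a window, 7 rose, 4 fell and 5 did not pass from 4H_TM to 24H_TM. Their median log2 fold change was 0.09, and of all tested genes 27.2% rose and 32% fell. The interaction was higher for 6 of the 16 and lower for 3, beside 15.1% and 20.3% of all tested genes. Of the 16 genes, 11 were over 2-fold more abundant with tunicamycin than with DMSO at 4 h and 10 at 24 h, against 3.55% and 4.13% of all tested genes. The ERSE-II was found in 19 windows (0.0541%), with 12 tested genes, of which 1 rose and 8 fell (median -0.41), beside the same 27.2% and 32%. The interaction was higher for 1 of these 12 genes and lower for 4, beside 15.1% and 20.3%. Genes with a shared element moved in either direction, and a match describes letters in a window, not binding.

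Of 20 enzymes that form disulfide bonds, 7 rose, 2 fell and 11 did not pass, beside 27.2% and 32% of all tested genes that rose and fell. PDIA3 (ERp57), which works with calreticulin and calnexin on glycoproteins, was at 1050.4, 982 and 998 CPM at 4 h and at 2299.8, 2243 and 2092 CPM at 24 h (log2 fold change 1.13 ± 0.06 (SE), adjusted p = 3.82e-13). With DMSO it fell (log2 fold change -0.29), and the interaction was 1.42 (adjusted p = 2.42e-11). PDIA6, which is known to regulate IRE1 and PERK signalling, QSOX1 and ERO1A, oxidases that supply disulfides, and ERP44, which retains them in the ER, rose with log2 fold changes of 0.76, 0.77, 0.76 and 0.50. ERO1B, the other ERO1 oxidase, did not pass, with 48.7, 49.6 and 58.3 CPM at 4 h and 43.8, 45.5 and 54.6 CPM at 24 h (log2 fold change -0.12, adjusted p = 0.31). It had stood at 5.48 times its DMSO level at 4 h and stood at 5.27 times at 24 h. The members that fell were TXNDC11 (-0.59) and TMX2 (-0.15), and TMX2 did not pass under 18 of 21 alternatives (adjusted p up to 0.51), so that without replicate 3 of 24H_TM 1 fell.

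Among 30 genes of ERAD, which returns misfolded proteins to the cytosol for destruction, 12 fell and 7 rose (11 with DESeq2), beside 32% and 27.2% of all tested genes. HERPUD1, a scaffold of the HRD1 ubiquitin ligase complex, was at 1333, 1302 and 1298 CPM in 4H_TM and at 758, 799 and 733 CPM in 24H_TM (log2 fold change -0.78 ± 0.07 (SE), adjusted p = 1.37e-09), and rose with DMSO (0.27). The HRD1 ligase itself, SYVN1, and its partner SEL1L fell with log2 fold changes of -0.38 and -0.20, SEL1L not passing under 12 of 21 alternatives (adjusted p up to 0.29). The p97 segregase and its cofactors fell, VCP (-0.67), UFD1 (-0.83) and NPLOC4 (-0.47). In the other direction, DERL3, a Derlin of the same pathway, was at 60.04, 72.0 and 77.7 CPM and then at 186, 176 and 153 CPM (log2 fold change 1.296 ± 0.10 (SE), adjusted p = 1.88e-10). OS9, a lectin that delivers substrates, and MARCHF6, another ligase, rose with log2 fold changes of 0.82 and 0.64. STT3B, the oligosaccharyltransferase subunit that also glycosylates misfolded proteins, rose (log2 fold change 0.79) while falling with DMSO (-0.22).

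In the pathway that tunicamycin blocks, N-glycan assembly and transfer, 23 of 44 genes rose and 11 fell, with a median log2 fold change of 0.18 against -0.16 with DMSO. DPAGT1, the target, was at 48.3, 47.1 and 47.0 CPM at 4 h and 44.8, 43.1 and 40.7 CPM at 24 h and did not pass (log2 fold change -0.15, adjusted p = 0.064). GMPPB, which makes the sugar donor GDP-mannose, was at 100.2, 99.4 and 95.8 CPM and then 42.2, 43.4 and 38.5 CPM (log2 fold change -1.25 ± 0.07 (SE), adjusted p = 1.02e-12). GFPT1, the first enzyme of the hexosamine route to UDP-GlcNAc, fell (log2 fold change -0.85), and the mannosyltransferase ALG2, DPM1, the catalytic subunit of dolichol-phosphate-mannose synthase, and DOLPP1 and DHDDS of the lipid carrier fell with log2 fold changes of -0.62 to -0.58. Among those that rose were OSTC (0.57) and DDOST (0.41) of the transferase complex, the mannosidase MAN1B1 (0.74) and UGGT1 (0.51), the glucosyltransferase that recognises unfolded glycoproteins. DPM3 (0.82), a subunit of the same synthase as DPM1, and ALG10B (0.81), a glucosyltransferase of glycan assembly, rose furthest. Of the 61 genes of ER entry and ER to Golgi transport, 33 fell and 11 rose. Without replicate 3 of 24H_TM 25 fell and 14 rose, and 21 fell and 11 rose when the 12 OCI-AML3 libraries of these groups were fitted alone. With DMSO 24 of the 61 fell and 8 rose (median -0.14 against -0.21 with tunicamycin). The interaction was lower for 16 and higher for 7. With tunicamycin the COPII coat genes SEC13 and SEC24D fell with log2 fold changes of -1.02 and -0.93. The signal recognition particle gene SRP19 (-1.01) and the SNARE STX5 (-0.85) fell too. By contrast, the signal peptidase subunits SEC11A, SPCS2, SPCS3 and SEC11C rose with log2 fold changes of 0.58, 0.49, 0.42 and 0.37, and the KDEL receptors KDELR3 and KDELR1 by 0.68 and 0.51.

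Among the lists of the stress response, the feedback and signalling targets of ATF4 and CHOP had the lowest median log2 fold change. Of 22 tested, 15 fell, 10 of them more than 2-fold, and 2 rose, and the median log2 fold change of -0.95 compares with 0.46 with DMSO and -0.03 over all genes. TRIB3, a pseudokinase that restrains AKT and ATF4, was at 670.1, 672 and 630.2 CPM in 4H_TM and at 180.1, 179 and 154 CPM in 24H_TM (log2 fold change -1.94 ± 0.07 (SE), adjusted p = 6.23e-15). CTH, the last enzyme of cysteine synthesis from methionine, was at 42.9, 44.3 and 47.6 CPM and then at 8.71, 10.2 and 9.8 CPM (log2 fold change -2.23 ± 0.09 (SE), adjusted p = 2.12e-14). CHAC1, which degrades glutathione, was at 149, 159.7 and 150.2 CPM and then at 55.7, 55.1 and 42.1 CPM (log2 fold change -1.59 ± 0.12 (SE), adjusted p = 1.62e-10). The groups did not overlap in any of the 3 genes. Relative to DMSO, CHAC1 stood at 59.0 times at 4 h and 12.6 times at 24 h, TRIB3 at 24.8 and 3.96 times and CTH at 9.05 and 1.65 times. SESN2, an inhibitor of mTORC1, GADD45A, the phosphatase subunit PPP1R15A (GADD34), which reverses the phosphorylation of eIF2α, the peptide hormone ADM2 and the AP-1 repressor JDP2 fell with log2 fold changes of -1.64, -1.63, -1.29, -1.27 and -1.21.

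With DMSO over the same hours, 13 of the 22 genes of this list rose, 5 of them more than 2-fold, and 2 fell. The interaction was lower for 18 of 22 members, 13 of the 18 past 2-fold, and higher for none (edgeR). DDIT4 (REDD1), another inhibitor of mTORC1, was at 616, 604 and 564 CPM with 4 h of tunicamycin and 475, 448 and 432 CPM with 24 h, but went from 19.1, 10.8 and 11.4 CPM to 304, 257 and 289.6 CPM with DMSO (interaction -4.77, adjusted p = 9.84e-15). STC2, a secreted glycoprotein, was at 123, 112 and 118 CPM and 54.7, 51.4 and 58.6 CPM with tunicamycin, and at 0.465, 1.79 and 1.26 CPM and 10.4, 7.59 and 10.3 CPM with DMSO. DDIT4 and STC2 were higher with tunicamycin than with DMSO in all libraries of either time, and the gap was narrower at 24 h. VLDLR, CDKN1A (p21) and the death receptor TNFRSF10B (DR5) did not pass with tunicamycin (-0.03, 0.07 and 0.09) and rose with DMSO (1.64, 1.16 and 0.35). The 2 members that rose with tunicamycin were KLHL24 (0.72) and VEGFA (0.42), which also rose with DMSO.

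Promoter windows of HERPUD1 (chr16:56931892-56932141) and CHAC1 (chr15:40953221-40953470), both on the plus strand, are shown because they hold the element of ATF4 and its partners, TGATGCAA, and both mRNAs fell. In each it lies on the opposite strand and reads TTGCATCA, and HERPUD1 also holds an ERSE-II.
HERPUD1: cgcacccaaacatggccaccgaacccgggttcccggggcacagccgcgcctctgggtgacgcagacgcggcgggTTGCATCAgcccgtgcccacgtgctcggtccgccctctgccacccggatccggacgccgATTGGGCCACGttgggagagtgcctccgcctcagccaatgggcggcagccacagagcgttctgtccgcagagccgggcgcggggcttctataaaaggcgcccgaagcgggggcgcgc
CHAC1: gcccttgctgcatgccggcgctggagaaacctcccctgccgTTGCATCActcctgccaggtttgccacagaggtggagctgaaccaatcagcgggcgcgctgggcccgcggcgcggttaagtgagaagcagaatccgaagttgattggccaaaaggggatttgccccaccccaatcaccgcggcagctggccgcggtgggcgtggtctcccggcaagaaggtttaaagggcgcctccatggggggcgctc
The element was found in 304 of 35116 windows (0.866%). Of 74 tested genes that had it, 20 rose and 35 fell (median log2 fold change -0.19), beside 27.2% and 32% of all tested genes, and the interaction was higher for 9 and lower for 24, beside 15.1% and 20.3%.

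Of 20 enzymes of amino acid synthesis and one-carbon metabolism, 15 fell, 8 more than 2-fold, and 1 rose (median log2 fold change -0.60). ASNS, asparagine synthetase, was at 322, 322 and 328 CPM at 4 h and at 149, 161 and 138 CPM at 24 h (log2 fold change -1.12 ± 0.07 (SE), adjusted p = 3.12e-11). PSPH and PSAT1 of serine synthesis fell with log2 fold changes of -1.31 and -1.002, the mitochondrial folate enzyme MTHFD2 (-1.03), and GPT2 and PCK2, which link amino acids to the citric acid cycle (-1.17 and -1.04). PHGDH, which opens the serine route, fell (log2 fold change -0.20) but did not pass under 15 of 21 alternatives (adjusted p up to 0.39), and SHMT2, PYCR1, SHMT1 and ALDH1L2 did not pass. Of 14 amino acid carriers, 9 fell and 2 rose (median log2 fold change -0.35). With DMSO 8 of the 14 fell and 1 rose (median -0.31). The interaction was lower for 6 and higher for 3. SLC7A11, which exchanges cystine for glutamate, was at 115, 112 and 136 CPM in 4H_TM and at 26.8, 26.4 and 36.7 CPM in 24H_TM (log2 fold change -2.01 ± 0.14 (SE), adjusted p = 5.55e-11). SLC7A11 fell with DMSO too (-0.88), and its interaction was -1.13. With tunicamycin SLC3A2, the heavy chain that SLC7A11 shares with SLC7A5, fell (log2 fold change -1.14), SLC7A5 (-0.91) and the arginine carrier SLC7A1 (-0.78). SLC1A4 (0.73) and SLC7A6 (0.29) rose. SLC1A4 also rose with DMSO (0.58), and its interaction did not pass (0.15, adjusted p = 0.195).

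The enzymes that charge tRNAs in the cytosol, several of which are known ATF4 targets, fell for 18 of 23 and rose for none (edgeR, median log2 fold change -0.62). VARS1, MARS1 and GARS1 fell with log2 fold changes of -1.09, -1.08 and -0.97, and the scaffold AIMP2 (-1.05). GARS1 was at a mean of 508 ± 13.8 CPM at 4 h and 259 ± 5.9 CPM at 24 h (SD, n = 3). AARS1, SARS1, QARS1 and AIMP1 were among those that did not pass. With DMSO 15 of the list fell and 2 rose, with a median of -0.24, and the interaction was lower for 15. Mitochondrial synthetases fell for 10 of 17, SARS2 the furthest (-1.13). Of 38 translation initiation factors and eIF2 regulators, 27 fell and 7 rose. The exchange factor subunit EIF2B3 fell (log2 fold change -1.22), the eIF4E inhibitor EIF4EBP1 (-0.99), EIF5 (-0.84) and EIF2S1, which encodes eIF2α (-0.80). EIF3E (0.58), EIF4B (0.44) and EIF4EBP2 (0.44) rose.

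Ribosomal protein mRNAs and the factors that build ribosomes moved in opposite directions. Of 47 genes of the large subunit, 36 rose and none fell (edgeR), and of 32 of the small subunit 17 rose and 1, RPS26 (-0.45), fell. The medians were 0.36 and 0.33 with tunicamycin and 0.54 and 0.56 with DMSO. The 24H_TM libraries differed here, with 72297, 85181 and 57968 CPM in all over the large-subunit genes in replicates 1, 2 and 3, against 54962 to 59549 CPM in 4H_TM. Without replicate 3, 46 large-subunit genes and 29 small-subunit genes rose, and without replicate 2 only 21 and 7. Of 45 ribosome biogenesis genes, 39 fell and 1, POLR1G (0.37), rose, with a median of -0.62 against -0.39 with DMSO. BOP1 and NOP2, which process the large-subunit rRNA, fell with log2 fold changes of -1.29 and -1.25, the RNA helicase DDX21 (-1.15) and UTP20 (-1.17). NPM1, which is mutated in this line, fell (log2 fold change -0.28), from a mean of 1133 ± 30.4 to 933 ± 32.8 CPM (SD, n = 3).

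Since the study follows splicing through SRSF1 and the kinase CLK1, genes of the splicing machinery were examined. SRSF1, the founding SR protein, was at 329, 335 and 359 CPM in 4H_TM and at 344, 351 and 388 CPM in 24H_TM, and the change did not pass (log2 fold change 0.08, adjusted p = 0.25). With DMSO SRSF1 fell from 520.1, 512 and 539 CPM to 341, 344 and 383 CPM (log2 fold change -0.56), and the changes differed by 0.64 (adjusted p = 1.04e-05). The 4H_DMSO libraries lay above those of the other 3 groups, which overlapped. CLK1, which phosphorylates SR proteins, was at 56.9, 55.9 and 66.2 CPM and 72.9, 80.9 and 81.9 CPM (log2 fold change 0.40 ± 0.17 (SE), adjusted p = 0.044), which did not pass under 6 of 21 alternatives, and its interaction did not pass (-0.08, adjusted p = 0.82). Of 13 SR and SR-related genes, 9 fell and 1, SRSF8 (0.26), rose (8 and 2 without replicate 1 or replicate 2 of 24H_TM and with the 12 OCI-AML3 libraries alone), SRSF7, SRSF3, TRA2B and TRA2A falling with log2 fold changes of -0.86, -0.71, -0.71 and -0.64. With DMSO 9 of the 13 fell too (median -0.41 against -0.32 with tunicamycin), and the interaction was higher for 5 and lower for 4. Of the 9 kinases, CLK1, CLK3 and PRPF4B rose with tunicamycin, and SRPK1, SRPK2, CLK2 and DYRK1A fell with log2 fold changes of -0.26 to -0.45. In place of 3 kinases, 1 rose without replicate 3 of 24H_TM, without replicate 1 or 2 of 4H_TM, or without TMM.

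Core spliceosome genes fell for 36 of 48 and rose for 1 (SNRPD3, 0.15; 2 without replicate 1 or 3 of 24H_TM and 0 without replicate 1 or 2 of 4H_TM), with a median of -0.46 against -0.11 with DMSO. PRPF3 and SNRPA fell with log2 fold changes of -1.23 and -1.19 and PRPF19 (-0.81). The 5 genes whose exon use the study follows were taken at the level of the gene, since counts per gene do not resolve exons. PRR3 went from a mean of 30.3 ± 1.04 CPM to 18.1 ± 1.54 CPM (log2 fold change -0.75), AP3S2 from 43.6 ± 1.81 to 27.5 ± 0.659 CPM (-0.66) and ARIH2 from 105 ± 2.4 to 69.8 ± 1.68 CPM (-0.59; all SD, n = 3). RBM39 fell (log2 fold change -0.19), but did not pass under 16 of 21 alternatives (adjusted p up to 0.28), and EIF4A2 rose (log2 fold change 0.29). Among 19 host genes of small nucleolar RNAs, some of whose mature RNAs are degraded when translated, 10 fell and 5 rose. SNHG1 was at 251, 274 and 273 CPM at 4 h and at 69.6, 76.3 and 81.0 CPM at 24 h (log2 fold change -1.81 ± 0.10 (SE), adjusted p = 2.77e-12), and its introns hold snoRNAs that share its strand. SNHG12 and SNHG17 fell with log2 fold changes of -1.14 and -1.14, and ZFAS1, SNHG5 and GAS5 rose with log2 fold changes of 0.76, 0.53 and 0.51.

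Sterol and fatty acid genes, targets of the SREBP factors that are themselves activated by transport out of the ER, separated tunicamycin from DMSO. With DMSO, 29 of 31 rose over the 20 h and none fell (edgeR), with a median log2 fold change of 0.85. With tunicamycin, 18 fell, 5 of them more than 2-fold, and 5 rose (median -0.35). The interaction was lower for 29 of 31 and higher for none, with a median of -1.33. HMGCS1, the synthase that forms HMG-CoA for the mevalonate pathway, was at 176, 168 and 168 CPM at 4 h and at 62.8, 63.1 and 75.3 CPM at 24 h of tunicamycin (log2 fold change -1.35 ± 0.08 (SE), adjusted p = 2.94e-12), and at 117, 117 and 124 CPM and 188, 168 and 184 CPM with DMSO. MVK, NSDHL and FASN fell with log2 fold changes of -1.21, -1.05 and -1.04. INSIG1, which holds SREBP in the ER, was at 148, 144 and 136 CPM and 176, 168 and 194 CPM with tunicamycin (log2 fold change 0.33 ± 0.08 (SE), adjusted p = 0.0018), and at 169, 142 and 148 CPM and 753, 575 and 709 CPM with DMSO.

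**Figure D3:**
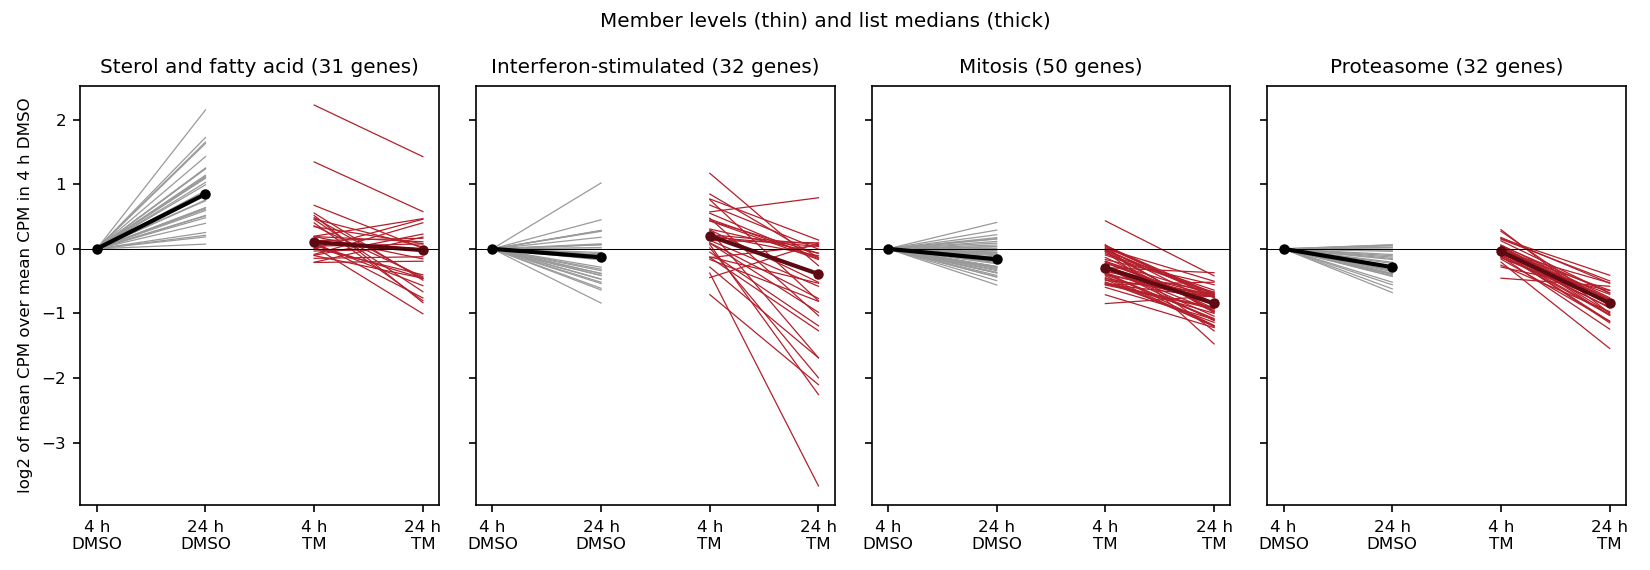
Log2 of the mean CPM of each gene relative to 4H_DMSO (vertical axes) in the 4 groups (horizontal axes) for the tested sterol and fatty acid, interferon-stimulated, mitosis and proteasome genes. Thin lines are genes and thick lines list medians, grey and black for DMSO and red for tunicamycin. The median of the sterol genes is higher at 24 h than at 4 h with DMSO and lower with tunicamycin, and the medians of the mitosis and proteasome genes are lowest at 24 h of tunicamycin.

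Glycolysis and hypoxia-type genes rose with and without the drug. Of 34 tested, 28 rose with tunicamycin and 33 with DMSO, and the medians were 0.61 and 0.98. NDRG1, a stress- and hypoxia-responsive gene, was at 309, 305 and 293 CPM in 4H_TM and at 1982, 1609 and 1793 CPM in 24H_TM (log2 fold change 2.57 ± 0.08 (SE), adjusted p = 2.29e-16), with a log2 fold change of 2.27 for DMSO. P4HA1, a collagen prolyl hydroxylase, was at 34.0, 33.9 and 37.0 CPM and then at 214, 184 and 237 CPM (log2 fold change 2.60 ± 0.08 (SE), adjusted p = 5.86e-16). Both rose somewhat more with tunicamycin (interactions 0.30 and 0.39, adjusted p = 0.025 and 0.011), that of NDRG1 not passing under 3 of 20 alternatives. For most of the pathway the rise was smaller with the drug, with 20 interactions lower and 4 higher. ALDOC, ENO2 and the glucose carrier SLC2A3 rose with log2 fold changes of 1.62, 2.28 and 0.74 with tunicamycin and of 2.93, 3.45 and 1.91 with DMSO. ENO1, GPI, PFKL, PGAM1 and HK2 did not pass with tunicamycin, with log2 fold changes of -0.10 to 0.07, but rose with DMSO, with values of 0.53 to 0.73. EGLN3, an oxygen sensor of the pathway, was near the detection limit in 4H_TM, at 0.0639, 0.0587 and 0.145 CPM, and reached 8.64, 7.89 and 10.6 CPM in 24H_TM.

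Of 50 mitosis genes, 45 fell and none rose (edgeR), with a median log2 fold change of -0.63 against -0.16 with DMSO, and the interaction was lower for 31. CDC20, the activator of the anaphase-promoting complex, was at 245, 240.4 and 218 CPM and then at 88.7, 83.7 and 70.6 CPM (log2 fold change -1.54 ± 0.07 (SE), adjusted p = 1.82e-13). PLK1, a mitotic kinase, was at 235, 219 and 207 CPM and then at 100.8, 95.7 and 85.8 CPM (log2 fold change -1.23 ± 0.07 (SE), adjusted p = 1.49e-12), and AURKA and TPX2 fell with log2 fold changes of -0.97 and -0.92. Of 49 DNA replication genes, 36 fell and 2 rose (29 and 3 without replicate 3 of 24H_TM), with CDC6, a licensing factor, falling (log2 fold change -0.97) and CDC45 (-0.84). The 2 that rose were the G1/S cyclins CCNE2 (0.85) and CCNE1 (0.71), both of which fell with DMSO (-0.70 and -0.53). Over the replication list, 29 of 49 fell and 3 rose with DMSO (median -0.22 against -0.36 with tunicamycin). The interaction was lower for 15 and higher for 5.

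Of 23 members of the BCL2 family and of the death receptors, 5 rose and 7 fell, beside 27.2% and 32% of all tested genes, and 8 rose without replicate 2 of 24H_TM or with DESeq2. BMF, a BH3-only protein that antagonises BCL2, was at 18.4, 16.1 and 15.3 CPM at 4 h and at 91.8, 89.4 and 89.4 CPM at 24 h (log2 fold change 2.44 ± 0.09 (SE), adjusted p = 8.77e-15), and rose with DMSO (log2 fold change 1.05, interaction 1.39, adjusted p = 1.13e-07). BCL2L11 (BIM), a known CHOP target of the same class, rose (log2 fold change 0.58), and the death receptors TNFRSF10A (DR4) and FAS (0.91 and 0.57). PMAIP1 (NOXA) fell (log2 fold change -0.76), BAK1 (-0.47) and BAX (-0.33), whereas BCL2, BCL2L1 and MCL1, the guardians of the mitochondrion, did not pass (0.17, -0.09 and -0.04), though BCL2 did under 9 of 21 alternatives. Of 24 p53 targets, 6 rose and 11 fell, or 7 and 5 without replicate 3 of 24H_TM. TP53INP1 went from 5.88, 5.16 and 6.83 CPM to 19.4, 15.8 and 20.1 CPM (log2 fold change 1.64 ± 0.16 (SE), adjusted p = 8.31e-09), the antiproliferative BTG2 rose (log2 fold change 1.54) and ZMAT3 (0.98), and MDM2 and GDF15 fell with log2 fold changes of -0.32 and -0.90.

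Among immediate early genes, which respond to signals within minutes, and MAPK phosphatases, 3 fell more than 2-fold, DUSP8, JUN and FOSB. DUSP8, a phosphatase that acts on JNK and p38, went from 1.73, 1.11 and 1.09 CPM to 0.0703, 0.223 and 0.0544 CPM, where few counts were left. JUN, a subunit of the AP-1 factor, was at 52.5, 41.4 and 46.7 CPM in 4H_TM and at 10.2, 6.92 and 7.62 CPM in 24H_TM (log2 fold change -2.51 ± 0.16 (SE), adjusted p = 2.66e-11), with means of 46.9 CPM against 7.47 CPM in 4H_DMSO and 8.24 CPM against 11.002 CPM in 24H_DMSO. FOSB fell (log2 fold change -2.12), KLF6 (-0.96), NR4A1 (-0.95) and MYC (-0.44). In all, 11 of 31 fell and 12 rose, and among those that rose, ZFP36L1 (1.98), DUSP4 (1.64), ZFP36 (0.93) and JUNB (0.72) rose with DMSO too. Of 22 NF-kappaB factors and inflammatory genes, 9 rose and 8 fell. The chemokine CCL2 was at 3.2, 3.17 and 4.07 CPM and then at 15.7, 16.8 and 16.1 CPM (log2 fold change 2.23 ± 0.18 (SE), adjusted p = 2.63e-09) and did not pass with DMSO (0.03). CXCL8 (interleukin-8) and TNF rose with log2 fold changes of 0.99 and 0.84, while the subunit RELB and the inhibitor NFKBIB fell with log2 fold changes of -1.13 and -1.26.

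Interferon-stimulated genes were lower at 24 h for 24 of 32, 12 of them more than 2-fold, and higher for 3 (1 without replicate 3 of 4H_TM), with a median log2 fold change of -0.71 against -0.13 with DMSO. ISG15, a ubiquitin-like modifier, was at 59.0, 57.7 and 48.7 CPM at 4 h and at 15.2, 14.97 and 10.8 CPM at 24 h (log2 fold change -2.02 ± 0.15 (SE), adjusted p = 2.07e-10). MX1, an antiviral GTPase, was at 115, 98.7 and 79.7 CPM and then at 25.7, 23.7 and 25.7 CPM (log2 fold change -1.96 ± 0.14 (SE), adjusted p = 1.21e-10). IFI27 went from 5.24, 5.63 and 4.28 CPM to 0.773, 0.447 and 0.327 CPM (log2 fold change -3.32 ± 0.32 (SE), adjusted p = 1.36e-08), and IFIT1, USP18 and XAF1 fell with log2 fold changes of -2.33, -1.51 and -1.42. In 24H_TM the means of ISG15, MX1 and IFI27 lay below those of 24H_DMSO, at 0.334, 0.379 and 0.0829 times, whereas at 4 h they had stood at 1.01, 1.21 and 0.771 times. Over the whole list the median ratio of tunicamycin to DMSO was 1.15 at 4 h and 0.89 at 24 h, with 23 and 8 of 32 genes above DMSO. IRF9, a factor that carries the interferon signal, fell (log2 fold change -0.68), and STAT2 rose (log2 fold change 0.22). IRF1 did not pass (-0.15). BST2 (0.53) and TAP1 (0.19) rose as well.

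Myeloid genes went both ways, 15 of 31 rising and 9 falling. With DMSO 16 of the 31 rose and 5 fell (median 0.37 against 0.29 with tunicamycin). The interaction was higher for 9 and lower for 9. The neutrophil proteases PRTN3 and ELANE of early granules fell with tunicamycin. PRTN3 went from 126, 113 and 109 CPM to 27.7, 23.0 and 17.8 CPM (log2 fold change -2.35 ± 0.12 (SE), adjusted p = 4.83e-13), and ELANE had a log2 fold change of -1.08. Their relative AZU1 rose (log2 fold change 0.59) and CTSG did not pass (-0.04). S100A9 fell (log2 fold change -1.68) and the factor GFI1 (-0.72). CST7 (cystatin F) was at 10.2, 10.7 and 10.5 CPM at 4 h and at 60.4, 65.1 and 47.5 CPM at 24 h (log2 fold change 2.46 ± 0.12 (SE), adjusted p = 6.23e-12), with 0.99 for DMSO and an interaction of 1.47 (adjusted p = 5.83e-06). The immunoreceptor adaptors FCER1G and TYROBP rose with log2 fold changes of 1.84 and 1.34, the integrin ITGB2 (1.4999) and the factor CEBPA (1.003). Of 20 genes of the HOX and leukaemia programme, 4 rose and 6 fell, beside 27.2% and 32% of all tested genes. HOXA9 and MEIS1, its hallmark in NPM1-mutant cells, did not pass (-0.11 and 0.15), though MEIS1 did under 9 of 21 alternatives. The receptor kinase FLT3 was at 91.2, 90.9 and 99.3 CPM and then at 203, 203 and 225 CPM (log2 fold change 1.16 ± 0.08 (SE), adjusted p = 2.00e-11).

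Of 32 proteasome subunits, 31 fell and none rose (edgeR), with a median of -0.81 against -0.28 with DMSO, and PSMB5 alone did not pass (-0.13, adjusted p = 0.24). PSMD1, a large subunit of the regulatory cap, was at 178, 177 and 162 CPM and then at 66.1, 74.1 and 64.5 CPM (log2 fold change -1.34 ± 0.06 (SE), adjusted p = 9.94e-14). The list's summed level was 6104 to 6341 CPM in 4H_TM and 3151 to 3939 CPM in 24H_TM. Of 31 cytosolic heat shock genes, 22 fell and 1, HSPA8 (0.30), rose. HSPH1, CHORDC1 and CCT5 fell with log2 fold changes of -1.07, -1.03 and -0.88, and HSP90AB1 went from a mean of 2505 ± 128 CPM to 1417 ± 104 CPM (SD, n = 3). HSPA8 had been lower with tunicamycin than with DMSO at 4 h, at 0.264 times, and fell with DMSO (-0.87). Autophagy and lysosome genes rose for 27 of 47 and fell for 8, or for 4 and 5 without replicates 1 and 2 of 24H_TM and for 4 with the 12 OCI-AML3 libraries alone. CALCOCO1, a receptor for autophagy of the ER and Golgi, was at 13.6, 15.3 and 17.9 CPM and then at 82.1, 64.0 and 81.3 CPM (log2 fold change 2.29 ± 0.10 (SE), adjusted p = 5.69e-14). The protease CTSB rose (log2 fold change 1.33), the cargo receptor OPTN (1.01) and the ER-phagy receptors CCPG1 and RTN3 by 0.74 and 0.72. With DMSO 22 of the 47 autophagy and lysosome genes rose and 8 fell (median 0.19 against 0.27 with tunicamycin). The interaction was higher for 9 and lower for 8.

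In mitochondria, 28 of 52 nuclear-encoded respiratory chain genes fell and 4 rose, with a median of -0.23 against 0.15 with DMSO. SDHB and CYC1 fell with log2 fold changes of -0.71 and -0.65. Without replicate 3 of 24H_TM, 15 fell and 6 rose, with a median of -0.11, and with the 12 OCI-AML3 libraries alone 17 fell and 3 rose. Of the 13 genes encoded in the mitochondrial genome, 1, MT-ND3 (0.38), rose and none fell (edgeR), and the median was 0.12, or -0.12 without replicate 3. With DMSO 7 of these fell, or 11 without replicate 1 of 4H_DMSO, 3 without replicate 2 of either DMSO group and 4 without replicate 3 of 4H_DMSO or replicate 1 of 24H_DMSO. Mitochondrial chaperones and proteases fell for 12 of 17, TRAP1 (-1.03) and HSPA9 (-0.70). Among 24 NRF2 and glutathione genes, 8 fell and 4 rose, beside 32% and 27.2% of all tested genes, among the latter members FTH1, the ferritin heavy chain (1.05). Of 8 transcripts known to be cut by IRE1, 6 rose and none fell (edgeR), or 5 and 1 without replicate 1 of 24H_TM, with TGOLN2, HGSNAT and CD59 at 0.67, 0.67 and 0.86 and BLOC1S1 not passing (0.10, adjusted p = 0.58). With DMSO 4 of them rose.

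**Figure D4:**
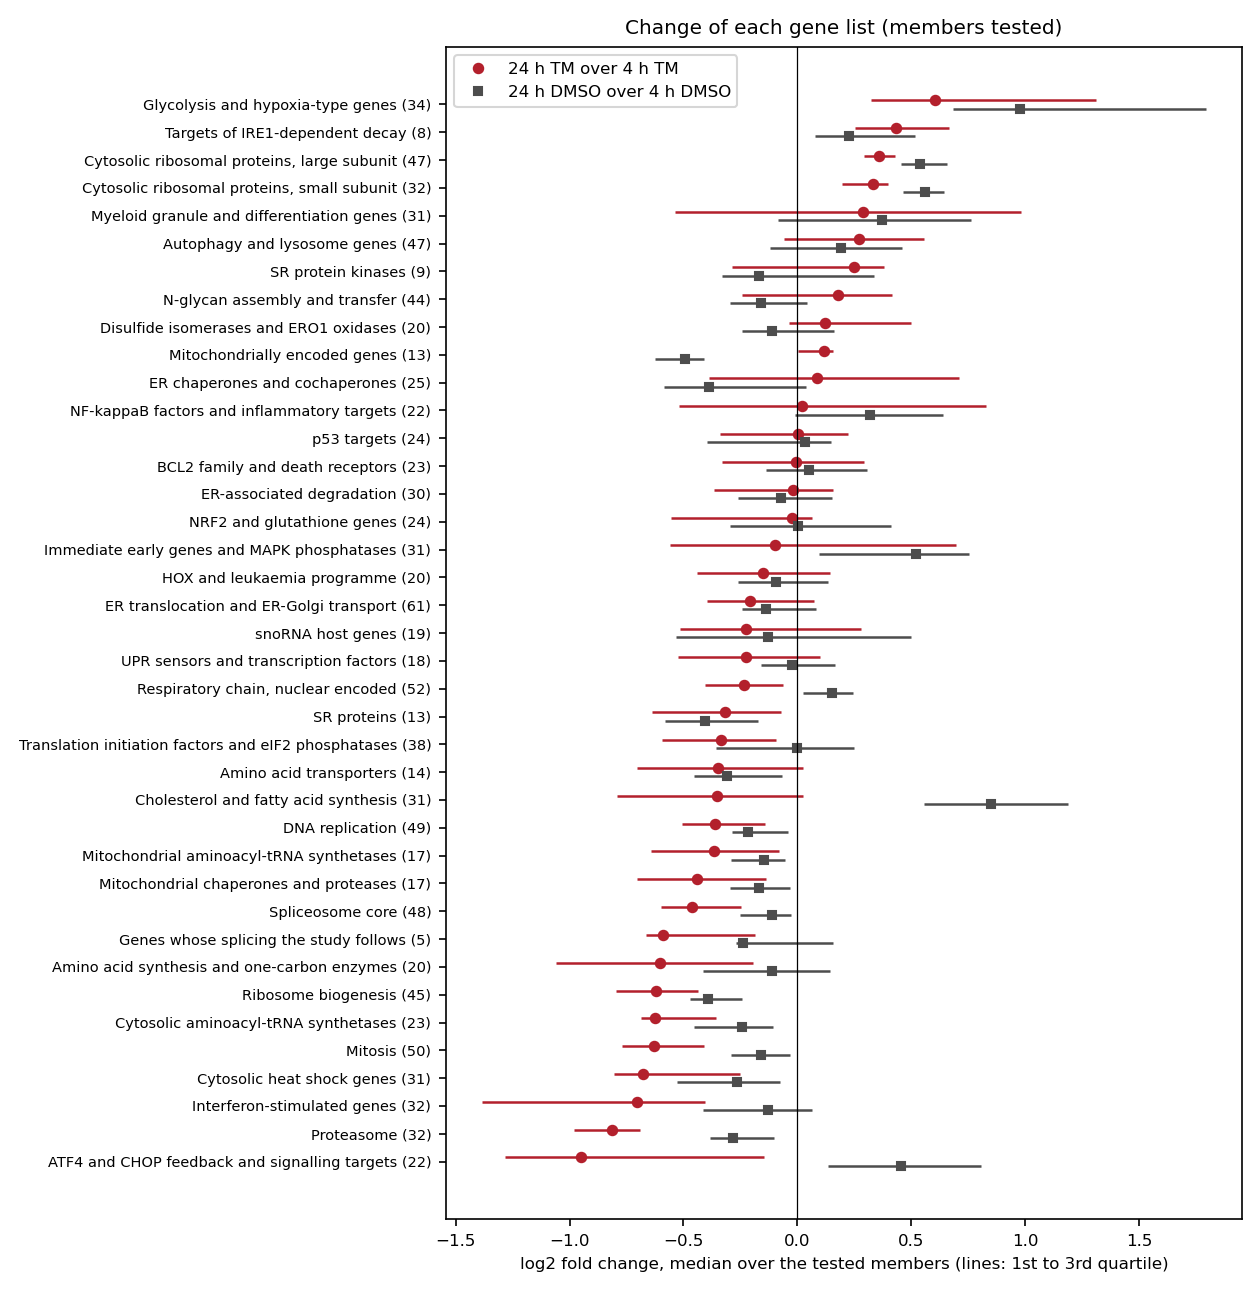
Median log2 fold change of each gene list (points, with lines from the first to the third quartile of its tested members) from 4 h to 24 h with tunicamycin (red) and with DMSO (grey), the number of tested members in brackets. ATF4 and CHOP targets lie at -0.95 with tunicamycin and 0.46 with DMSO, and sterol genes at -0.35 and 0.85.

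Among the 636 called genes with a mean of at least 10 CPM over the 6 libraries and groups that did not overlap, the 12 largest rises all rose with DMSO as well. FCGR2B, an inhibitory Fc receptor, was at 1.98, 2 and 2.69 CPM in 4H_TM and at 105, 104 and 125 CPM in 24H_TM (log2 fold change 5.65 ± 0.17 (SE), adjusted p = 2.35e-15), and its interaction did not pass (0.32, adjusted p = 0.36). FCGR2C (5.19, and 4.78 with DMSO) is nearly identical to FCGR2B, so that the division of reads between them is uncertain. CD86, a costimulatory receptor, was at 4.54, 2.35 and 2.25 CPM and then at 57.5, 54.5 and 70.6 CPM (log2 fold change 4.32 ± 0.18 (SE), adjusted p = 1.82e-13), and LSP1, SULF2 and ADSS1 rose with log2 fold changes of 4.37, 3.88 and 3.26 with tunicamycin and of 3.81, 3.64 and 3.44 with DMSO. STC1, a secreted glycoprotein like STC2, and CD300A, an inhibitory receptor, rose less with the drug than without it (interactions -1.48 and -1.45). In contrast, AGXT, SNED1 and TGM2 rose more, and CD86 had an interaction of 0.82 (adjusted p = 0.03) that did not pass under 5 of 20 alternatives. AGXT, alanine-glyoxylate aminotransferase, was at 5.88, 6.4 and 5.95 CPM and then at 66.1, 57.3 and 57.0 CPM (log2 fold change 3.30 ± 0.13 (SE), adjusted p = 3.12e-13), with an interaction of 2.27. SNED1 and the transglutaminase TGM2 had interactions of 2.004 and 2.08.

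Of the 12 largest falls, ATF3, CTH, TRIB3, SLC7A11, JUN, ISG15, MX1, IFIT1, PRTN3 and SNHG1 were described with their lists. ID1, an inhibitor of differentiation that sequesters basic helix-loop-helix factors, fell the furthest, from 21.7, 24.1 and 22.0 CPM to 2.53, 2.01 and 1.31 CPM (log2 fold change -3.57 ± 0.18 (SE), adjusted p = 3.31e-13), and did not pass with DMSO (0.21, adjusted p = 0.15). Its relative ID3, below the 10 CPM mean of this selection and named after its values were seen, was at 11.1, 13.6 and 12.9 CPM in 4H_TM and at 0.632, 0.223 and 0.272 CPM in 24H_TM (log2 fold change -5.06 ± 0.25 (SE), adjusted p = 3.21e-13) and rose with DMSO (1.21). ID2 did not pass (0.14, adjusted p = 0.15). SLC12A3, a sodium-chloride cotransporter, was at 25.6, 25.5 and 25.9 CPM and then at 5.34, 5.06 and 5.5 CPM (log2 fold change -2.27 ± 0.13 (SE), adjusted p = 2.10e-12). In ID1, PRTN3, SLC12A3, ISG15, MX1 and IFIT1 the 24H_TM level lay below every other group, whereas ATF3, CTH, TRIB3 and SLC7A11 were above DMSO at both times, standing at 24 h at 1.47, 1.65, 3.96 and 13.8 times. JUN and SNHG1 stood at 6.28 and 2.54 times the DMSO level at 4 h and at 0.749 and 1.03 times at 24 h.

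**Figure D5:**
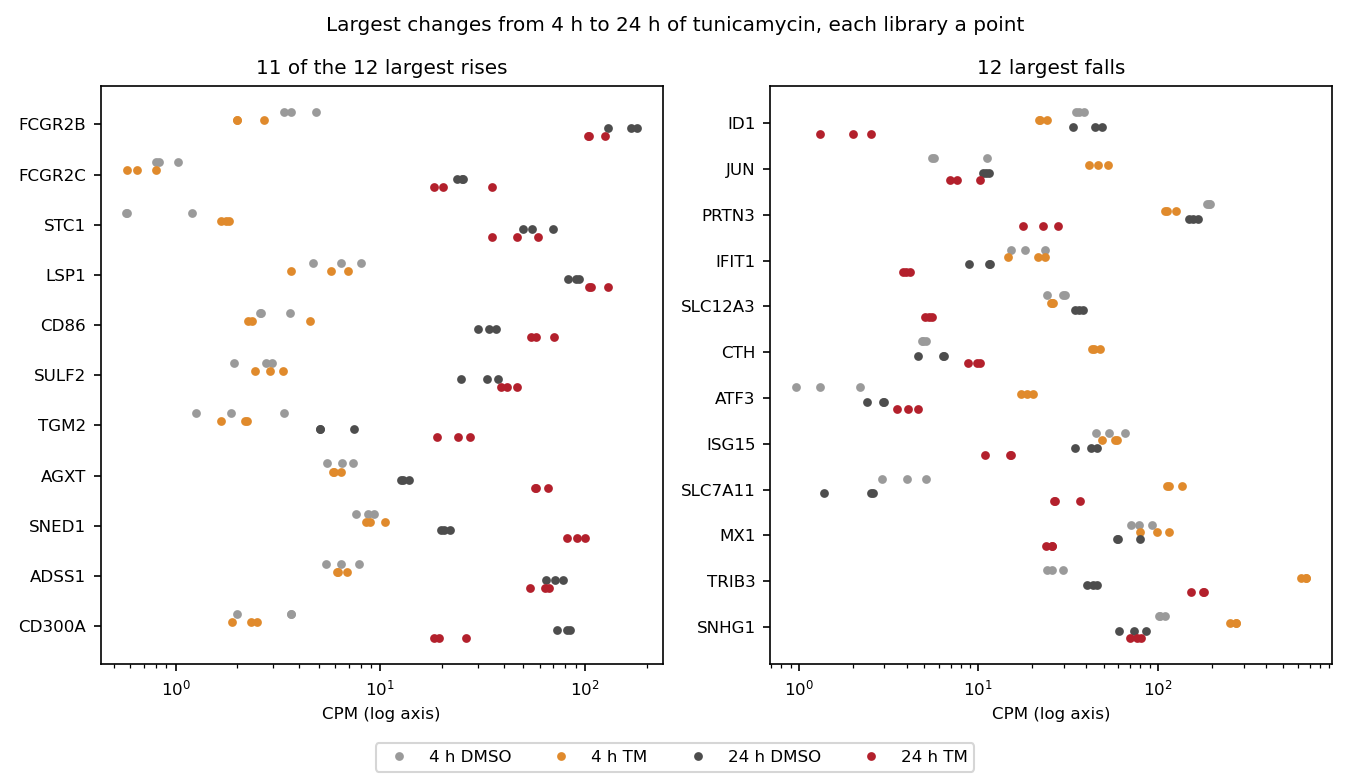
Level in CPM (horizontal axes, log scale) of 11 of the 12 genes with the largest rises and the 12 with the largest falls from 4 h to 24 h of tunicamycin, each point a library, in grey for 4H_DMSO, orange for 4H_TM, black for 24H_DMSO and red for 24H_TM. The ranges of the black and red points overlap for FCGR2C, STC1 and ADSS1, the black points lie below the red ones for AGXT, SNED1 and TGM2 and above them for CD300A, and for ID1, PRTN3 and SLC12A3 the red points lie below all others.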

How the data were processed

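RNA-seq of polyA-enriched RNA with paired-end reads was aligned by the authors with STAR to GRCh38 (hg38) and counted with RSEM, as the study's methods and the submitters' processing notes state. The authors deposited a table of expected counts for 60671 genes, of which 3.54% to 4.22% of values per library were not whole. These expected counts were rounded. Gene IDs were matched to GENCODE on GRCh38 (60401, 99.6%), and every column belonged to a labelled sample. Groups followed the labels. All 21 libraries were fitted with edgeR 4.0.16 in R 4.3.3 (TMM, glmQLFit, glmQLFTest) with a mean for each of 7 groups, for the genes that reached 1 CPM in 8 or more libraries. Contrasts were 24H_TM minus 4H_TM, 24H_DMSO minus 4H_DMSO and their difference. P-values were adjusted over all tested genes by the Benjamini-Hochberg method with a threshold of 0.05, joined for calls by a fold change above 2, as in the study, which used limma voom. SEs were taken from the quasi-likelihood F statistic. The fit was tested on simulated data with known changes. Total counts of the 21 libraries ran from 13838466 to 19961798, and intervals between replicates cover only the spread between libraries. Alternatives were limma voom (3.58.1), DESeq2 (1.42.0), other scalings and filters, fewer libraries, a replicate block and leaving out each library. Named genes were the 12 largest rises and falls among called genes with a mean of at least 10 CPM and groups that do not overlap, genes the study follows, and up to 4 members per direction, or members with a role set beside them, of 40 gene lists. Results of some of these genes are not reported here. The members and lists were chosen with earlier results of these data known. Promoter windows came from RefSeq on GRCh38.p14. HEK293T and 0H libraries entered the filter, the scaling and the fit, and no contrast.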

Additional observations from a re-analysis of the deposited data

Results flagged for a closer look

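The change from 4 h to 24 h differed between tunicamycin and DMSO for 849 genes by edgeR's interaction test (adjusted p of at most 0.05 and a difference of more than 2-fold). Of these, 6 were called in both treatments, in opposite directions, and 5 are given here. ID3 was lower at 24 h with tunicamycin (log2 fold change -5.06) and higher with DMSO (1.21), a difference of -6.27. STC2 (-1.10 and 2.98) differed by -4.08. MVK, mevalonate kinase of sterol synthesis, went from a mean of 26.5 to 11.5 CPM with tunicamycin and from 20.1 to 42.8 CPM with DMSO, a difference of -2.31. The other two carry no symbol in the annotation and were of low abundance. ENSG00000279592 went from 5.75 to 2.72 CPM with tunicamycin and from 1.43 to 3.12 CPM with DMSO, a difference of -2.20. ENSG00000236364 moved the other way, from 0.702 to 1.51 CPM and from 1.6 to 0.747 CPM, a difference of 2.22, and its changes with tunicamycin and with DMSO did not pass under 3 of 21 and 5 of 20 alternatives. These 5 genes were named after their values were seen.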

How the results depend on the processing

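For the comparison of 24H_TM with 4H_TM, the 1435 called genes became 1459 with limma voom, 1503 with DESeq2, 1425 without TMM and 1464 with the 12 OCI-AML3 libraries alone (374 lower in place of 430, with a median over all genes of 0.01 in place of -0.03), and 98.3% and 93.6% of the main calls were also made by limma voom and DESeq2. With no filter on low counts 2221 genes were called, 1540 higher and 681 lower, from 31899 genes tested. For DMSO the counts with no filter were 917 in all and 234 lower, and 93 lower calls became 145 with at least 1 CPM in 3 libraries and 165 without TMM. Leaving out the 2-fold threshold gave 8304 calls for tunicamycin (3817 higher, 4487 lower), 5970 for DMSO (2944 and 3026) and 4953 for the interaction (2111 and 2842). Without TMM the median over all genes with DMSO was -0.14 in place of -0.02, the share of higher calls 69.8% in place of 84.0%, and for the interaction 70.4% in place of 57.4%. Leaving out 1 replicate at a time gave 1414 to 1581 calls for tunicamycin (985 to 1152 higher, 382 to 433 lower), 552 to 696 for DMSO (472 to 553 higher, 79 to 143 lower) and 734 to 1057 for the interaction (423 to 650 higher, 301 to 407 lower). The 143 lower calls came without replicate 1 of 4H_DMSO, the cause was not tested. Of the named genes, the change with tunicamycin of 16 that passed did not pass under at least 1 alternative, among them ATF5, BAX, CLK1, MDM2, NFE2L2, PHGDH, PRPF4B, RBM39, SEL1L, SNRPD3, STAT2, TAP1 and TMX2 (18 alternatives for TMX2, 16 for RBM39, 15 for PHGDH, 12 for SEL1L, 6 for ATF5 and CLK1 and at most 4 for the others of these), and 14 that had not passed did so, among them BCL2, MANF and MEIS1. With DMSO, 44 named genes that passed did not pass under at least 1 alternative, and 38 that had not passed did so. In the interaction these counts were 32 and 14. The fall of CANX with DMSO did not pass under 7 of 20 alternatives. With the replicate number as a replicate block, 1442 genes were called for tunicamycin, 577 for DMSO and 837 for the interaction. Same-numbered libraries did not deviate together on average (Pearson's r across genes -0.17 to 0.31, mean 0.02 over 18 pairs, against a mean of -0.01 over 36 pairs of different numbers). Correlations of deviations from means of 3 libraries cannot decide whether the numbers pair the samples. With 3 libraries per group and 14108138 or more counts in each, changes of genes near 1 CPM rest on few counts.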

Other observations

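Untreated OCI-AML3 cells (0H), which enter none of the comparisons, give a further level for the genes described, each as mean CPM over 3 libraries. Stress genes of untreated cells were close to those of 4H_DMSO, with HSPA5 at 655 ± 16.1 CPM (SD, n = 3) against 704 CPM and DDIT3 at 10.2 ± 0.691 CPM against 10.997 CPM. SRSF1 was at 589.9 ± 22.4 CPM untreated, at 524 CPM in 4H_DMSO and at 356 CPM in 24H_DMSO. HSPA8, the main cytosolic Hsp70 cognate, was at 3320 ± 103 CPM untreated, at 3072 CPM in 4H_DMSO and at 1677 CPM in 24H_DMSO, and with tunicamycin at 809.7 CPM at 4 h and 994 CPM at 24 h. Genes that rose over the 20 h with and without the drug were near their 4 h level at 0 h, with FCGR2B at 3.76 ± 0.352 CPM, CD86 at 2.14 ± 0.118 CPM and NDRG1 at 326 ± 5.62 CPM. ID1, at 42.6 ± 3.71 CPM untreated, stood at 36.5 CPM in 4H_DMSO and 42.5 CPM in 24H_DMSO, and at 22.6 CPM and 1.95 CPM with 4 h and 24 h of tunicamycin. PRTN3 was at 231 ± 17.5 CPM untreated and was lower in each of the other groups, at 22.8 CPM in 24H_TM. These values are descriptions, and no test was run against 0H.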
